A study of Mus musculus with 180 samples.

Results

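STAT proteins are transcription factors that wait in the cytoplasm until a cytokine receptor is engaged. Janus kinases (JAKs) bound to the receptor then phosphorylate them, and they pair, enter the nucleus and bind DNA. STAT2 acts mainly within ISGF3, the complex with IRF9 that switches on interferon-stimulated genes after type I interferon. STAT3 transmits signals of the IL-6 and IL-10 families, STAT5A and STAT5B those of growth hormone, GM-CSF and several interleukins, and STAT6 those of IL-4 and IL-13. In macrophages, LPS leads to release of type I interferon and IL-10, so that these factors act after TLR4. Here the mRNA of Stat2, Stat3, Stat5a, Stat5b and Stat6 was followed. The genes were chosen by name, with earlier results of these data known. These 5 genes are among 45070 in the deposited table and among the 12714 that were tested, which are those whose mean over the samples reached 10.

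Bone marrow-derived macrophages were grown in culture from wild type male C57/BL6 mice of 6–8 wk. Cells were given 1 of 58 clinical kinase inhibitors (CKIs) or the vehicle DMSO for 1 h, and LPS at 10 ng/ml was then added for 2 h. All 180 samples, the controls included, thus received LPS. Each CKI had 3 samples and DMSO had 6, which the labels divide into 2 sets of 3. The 6 CKIs developed against JAK family kinases were Filgotinib, Momelotinib, Tofacitinib, BMS911543, Pacritinib and Ruxolitinib. Each CKI was used at a concentration that the paper took from its binding to an intended kinase in cell lysates. That kinase need not be the one a CKI was developed against. Apitolisib was used for JAK1, TG100572 for TYK2 and Momelotinib for IKBKE. Filgotinib, Tofacitinib and BMS911543 were not found to bind JAKs in that assay. The CKIs were used at different concentrations, so their values stand side by side and no CKI was compared with another. The methods speak of independent biological replicates, but the labels do not tie samples to mice, so p-values measure the spread between these samples.

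A normalized value is the number of reads counted for a gene after the authors' scaling of each sample on genes that varied little. These values summed to between 9477340 and 12273349 per sample. The 10 macrophage markers all had means of at least 10. So did 7 of the 8 neutrophil markers, with S100a8 highest at a mean of 258 and Ngp at 238, while Ly6g, the other one, had a median of 0. The summed neutrophil markers lay at 28.7 to 90.9 per 1000000 of a sample's total in DMSO and at 58 to 93.1 with Filgotinib. In bulk RNA, fewer cells of a kind and less RNA per cell cannot be told apart. The second replicates of both DMSO sets had the highest values of the 6 DMSO samples for Stat2, Stat3, Stat5a and Stat5b, so results are also given without those 2 samples, a choice made after seeing the data. These 2 samples also had the lowest shares of mitochondrially encoded transcripts among the DMSO samples, 0.871% and 0.76%, where the others had 0.916% to 1.95%. With that share and the replicate number as covariates, the Filgotinib, Pimasertib, Afatinib and Mubritinib calls given here held, and those with Tofacitinib and Apitolisib did not. The medians of the log2 fold changes over all genes lay at 0.17 with Tofacitinib, 0.12 with Pimasertib, 0.11 with Momelotinib and 0.11 with Apitolisib.

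Stat2 and Stat6 lie on chromosome 10, and Stat5b, Stat5a and Stat3 are neighbours on chromosome 11. In mm10 coordinates, Stat2 spans 128270498 to 128292853 and Stat6 spans 127642986 to 127660987, both on the plus strand. Stat5b spans 100780731 to 100850581 on the minus strand, Stat5a 100859351 to 100885169 on the plus strand and Stat3 100886806 to 100939540 on the minus strand. The exons of Stat2, Stat3 and Stat6 lie in spans that overlap other annotated genes (Apof, Gm46295, and Gm30989 with Nab2), and the counting was not stated to use strand. Stat5a and Stat5b are close copies. Of all stretches of 51 bases in the longest GENCODE coding transcript, 15.6% of those of Stat5a also occurred in Stat5b and 11.6% of those of Stat5b in Stat5a. Since 1 alignment was kept for each read, the split of reads between these 2 genes is uncertain to that extent.

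The 250 bases before the annotated transcript start, taken from RefSeq on GRCm38.p6 (mm10), were searched on both strands for the interferon-stimulated response element (ISRE, GAAA and again GAAA with any 2 bases between) and for the STAT sites known as GAS (TTC and GAA with any 3 or any 4 bases between). The 5 genes have 7 such windows, since Stat5a and Stat5b have 2 starts each. The window of Stat2 held an ISRE on the minus strand at positions -222 to -213 from the start and a GAS with 4 spacer bases at -210 to -201, and the other windows held none of the 3 motifs. Of all 32851 promoter windows of this length, 2.98% held the ISRE, 7.02% the GAS with 3 spacer bases and 5.85% that with 4. Searches for an AP-1 site (TGANTCA) and an ETS core (CCGGAAG) found none in the 7 windows, against 6.75% and 6.91% of all windows. A match is a string of letters and not a measured binding site. The Stat2 window is shown because it held both matches, in capitals, and the Stat5a and Stat5b windows because these 2 genes had the highest correlation of any pair over the groups (r = 0.902), although their levels differ. They lie at chr10:128270248-128270497 (plus strand), chr11:100859406-100859655 (plus strand) and chr11:100850582-100850831 (minus strand), and are written 5′ to 3′.
Stat2: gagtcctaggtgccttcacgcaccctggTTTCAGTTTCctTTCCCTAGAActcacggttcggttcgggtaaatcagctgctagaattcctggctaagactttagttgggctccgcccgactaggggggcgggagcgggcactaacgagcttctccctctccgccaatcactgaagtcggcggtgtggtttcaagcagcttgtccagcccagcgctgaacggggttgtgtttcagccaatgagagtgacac
Stat5a: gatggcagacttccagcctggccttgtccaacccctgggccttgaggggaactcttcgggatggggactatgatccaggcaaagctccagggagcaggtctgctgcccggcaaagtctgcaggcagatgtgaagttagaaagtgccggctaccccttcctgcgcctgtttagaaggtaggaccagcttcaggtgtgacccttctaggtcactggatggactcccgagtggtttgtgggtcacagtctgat
Stat5b: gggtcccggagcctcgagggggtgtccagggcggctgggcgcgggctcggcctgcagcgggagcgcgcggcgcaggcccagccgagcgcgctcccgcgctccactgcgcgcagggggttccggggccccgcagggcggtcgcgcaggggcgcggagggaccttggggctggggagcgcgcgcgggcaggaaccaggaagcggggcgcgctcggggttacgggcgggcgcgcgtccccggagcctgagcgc

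In DMSO, Stat3, Stat5a and Stat6 had similar levels, Stat2 was lower and Stat5b was the lowest. Per kilobase of exon, the DMSO means were 631.7 ± 147.5 for Stat3, 600.8 ± 215.9 for Stat5a, 560.4 ± 72.05 for Stat6, 365.2 ± 141 for Stat2 and 54.94 ± 17.39 for Stat5b (SD, n = 6). Stat5b lay below each of the other 4 genes in 180 of 180 samples. The order of Stat3, Stat5a and Stat6 was not fixed within the DMSO samples, since Stat5a was above Stat3 in 2 of 6 and Stat6 was above Stat3 in 2 of 6. Stat2 was below Stat3, Stat5a and Stat6 in each of the 6 DMSO samples. Over all samples Stat3 was above Stat2 in 179 of 180, and Stat5a was above Stat2 in 170.

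The vehicle samples were spread widely for Stat2, Stat5a and Stat5b and narrowly for Stat6. Normalized values of Stat2 in DMSO ran from 1001 to 2636 with a median of 1366, and those of Stat5a from 1706 to 3857 with a median of 1952. Those of Stat3 ran from 2293 to 4123 (median 2574), those of Stat5b from 314 to 679 (median 384.5) and those of Stat6 from 1773 to 2506 (median 2150). For Stat5a, the second replicates had 2993 and 3857, while the other 4 DMSO samples lay between 1706 and 1995. Between the 2 DMSO sets, 0 of the 5 genes passed limma's test, and 0 had an unadjusted p under 0.05. Over all 180 samples Stat6 ran from 1602 to 2691, the narrowest of the 5 ranges as a ratio of highest to lowest, while Stat5b, the gene with the lowest values, had the narrowest in normalized values, from 196 to 679.

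Across the 58 CKIs, the calls on the STAT genes with all samples were all lower than DMSO. Of 290 comparisons, 13 were called lower than DMSO and 0 higher at an adjusted p under 0.05 in limma, where 1.65% of all gene and CKI comparisons were called lower and 2.52% higher. At an unadjusted p under 0.05, 86 were lower and 1 was higher, the latter being Stat2 with BGT226. Among the 12714 genes tested, such a p was found for 308 with Neratinib and up to 5107 with BGT226. All comparisons share the same 6 DMSO samples, so the counts for different CKIs are not independent. The count depended on the fit: without the second replicates of both DMSO sets, 4 were called lower and 2 higher, a second scaling of the samples gave 21 and 0, and a fit that blocks on replicate numbers (the replicate block) gave 22 and 1. For these other fits the share of all genes called over the 58 CKIs is not given. The change in count is therefore not read as particular to the STAT genes. The block kept all 13 calls. It added lower calls on Stat2 with Apitolisib and Pimasertib, on Stat5a with Bafetinib and PH797804, on Stat5b with Afatinib and Bafetinib and on Stat6 with Lapatinib, MK2206 and Volasertib, and a higher call on Stat6 with BGT226.

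Stat5a and Stat3 were each called lower with 4 CKIs, Stat5b with 3, and Stat2 and Stat6 with 1 each, and under the replicate block these counts were 6, 4, 5, 3 and 4. The median log2 fold change over the 58 CKIs was -0.52 for Stat5a, -0.36 for Stat2, -0.24 for Stat5b, -0.23 for Stat3 and -0.05 for Stat6. All 3 CKI samples lay below all 6 DMSO samples in 14 CKIs for Stat5a, 6 for Stat3, 3 for Stat5b, 1 for Stat2 and 0 for Stat6, against 2.02% of all gene and CKI comparisons. In 0 CKIs did they lie above, against 4.52%. DMSO ranked near the top of the 59 group means for Stat3, in place 56 from the lowest, and in place 48 for Stat6.

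**Figure D1:**
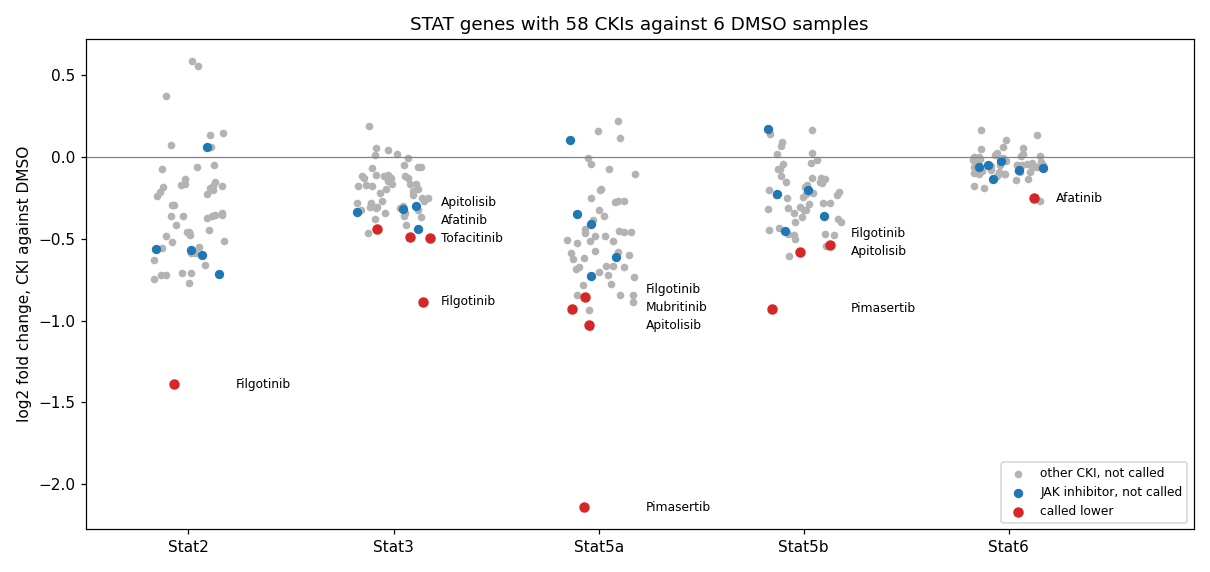
Log2 fold change of each STAT gene with each of 58 CKIs against the 6 DMSO samples (y axis), by gene (x axis), with calls in red and JAK inhibitors that were not called in blue. Stat5a with Pimasertib lies lowest at -2.14, Stat2 with Filgotinib at -1.39, and the points of Stat6 lie closest to 0.

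Among the JAK inhibitors, Filgotinib had the most calls on STAT genes. It lowered 4 of 5 (Stat2, Stat3, Stat5a and Stat5b), where 14.6% of all genes tested were called lower with this CKI. Tofacitinib lowered 1 of 5, Stat3, where 0.857% of all genes were lower. Momelotinib, BMS911543, Pacritinib and Ruxolitinib had 0 calls in limma, where 0.409%, 8.08%, 0.0551% and 0% of all genes were called lower. At an unadjusted p under 0.05, they had 1, 1, 4 and 2 of the 5 genes. Of the 12714 genes tested, 1318, 2369, 2384 and 590 had such a p. Differences between JAK inhibitors were not tested, because the concentrations differed.

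Stat2, the interferon-specific partner in ISGF3, had its lowest mean of the 59 groups with Filgotinib. The 3 samples had normalized values of 639, 510 and 627, all below the lowest DMSO sample at 1001. The mean was 592 ± 71.3 (SD, n = 3) against 1634.5 ± 631 in DMSO (n = 6), 2.62-fold lower on the log2(value + 1) scale, with a log2 fold change of -1.39 (SE 0.29, adjusted p = 0.000127). Without the second DMSO replicates it was -1.07 (adjusted p = 0.0108), and it was called in 25 of 25 alternative settings.

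With the other JAK inhibitors, Stat2 overlapped DMSO. Momelotinib gave 1239, 829 and 1099, Tofacitinib 866, 876 and 1392, and Pacritinib 717, 826 and 1390. Ruxolitinib gave 897, 1462 and 866, and BMS911543 1393, 1297 and 2293. Log2 fold changes were -0.57, -0.60, -0.72, -0.56 and 0.06 in that order, with an SE of 0.29 each and adjusted p-values between 0.143 and 1.00 in limma, so that none passed and only the last lay above 0. These values do not show that the 5 CKIs left Stat2 at the DMSO level, since the 95% interval with Pacritinib reached from -1.29 to -0.14.

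Stat3, the factor of the IL-6 and IL-10 families, was lowered by Filgotinib and Tofacitinib. Filgotinib gave 1559, 1346 and 1656, below the DMSO minimum of 2293, with a log2 fold change of -0.89 (SE 0.13, adjusted p = 7.79e-08). Tofacitinib gave 2115, 1888 and 1957, with a log2 fold change of -0.50 (SE 0.13, adjusted p = 0.0174). Both sets of 3 lay wholly below DMSO, but the Tofacitinib call was lost without the second DMSO replicates (-0.33, adjusted p = 0.178), without replicate 2 of the second DMSO set alone (0.0938) and without Tofacitinib replicate 2 (0.178), whereas that of Filgotinib was kept (-0.72, adjusted p = 4.66e-05).

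The log2 fold changes of Stat3 with Momelotinib, BMS911543, Pacritinib and Ruxolitinib lay between -0.44 and -0.30, and none passed. Their samples ran from 1851 to 2715, so that each CKI had at least 1 sample within the DMSO range. Momelotinib had an adjusted p of 0.1 in limma, the lowest of these 4, and passed without replicate 3 of the first DMSO set (-0.50, adjusted p = 0.0441).

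Pacritinib had 1 sample apart from the others. Its replicate 3 was the highest of its 3 samples for Stat2, Stat3, Stat5a and Stat5b, with 1390, 2715, 1956 and 387, all within the DMSO range. Without it, limma called all 4 genes lower, with log2 fold changes of -1.003 for Stat2 (adjusted p = 0.0328), -0.49 for Stat3 (0.0252), -0.98 for Stat5a (0.0258) and -0.62 for Stat5b (0.0407). Mitochondrial transcripts made up 4.2% and 3.39% of replicates 1 and 2 and 0.892% of replicate 3, and the part of that share in the result was not tested.

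Stat5a and Stat5b, near-identical factors of GM-CSF and growth hormone signalling, were also called lower with Filgotinib, but these calls rested on single samples. Stat5a gave 1289, 1053 and 1454, all below the DMSO minimum of 1706, with a log2 fold change of -0.86 (SE 0.27, adjusted p = 0.014). Stat5b gave 290, 279 and 300 against a DMSO minimum of 314, with a log2 fold change of -0.54 (SE 0.19, adjusted p = 0.03). Both calls were lost without the second DMSO replicates, with -0.57 (adjusted p = 0.201) for Stat5a and -0.29 (adjusted p = 0.371) for Stat5b. Either call was also lost when only replicate 2 of the second DMSO set was left out, with adjusted p-values of 0.066 and 0.146. That of Stat5a was lost without Filgotinib replicate 2 (adjusted p = 0.101), and that of Stat5b when any 1 of the Filgotinib samples was left out (adjusted p = 0.0608 to 0.103) or without replicate 2 of the first DMSO set (0.0712). The sum of both genes, which the split of shared reads does not touch, gave -0.80 (SE 0.25, adjusted p = 0.014).

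BMS911543 had the highest Stat5b mean of the 59 groups, 478, from samples at 426, 446 and 562. Its Stat5a samples were 2232, 2152 and 3021. Neither differed from DMSO beyond the spread, with log2 fold changes of 0.10 (adjusted p = 0.886) and 0.17 (adjusted p = 0.687) in limma.

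Stat6, the factor of IL-4 and IL-13, did not pass the test with any JAK inhibitor. Its values with these 6 CKIs lay between 1823 and 2187, inside the DMSO range of 1773 to 2506. Log2 fold changes ran from -0.13 with Filgotinib to -0.03 with Ruxolitinib. The 95% interval with Filgotinib was -0.32 to 0.05.

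**Figure D2:**
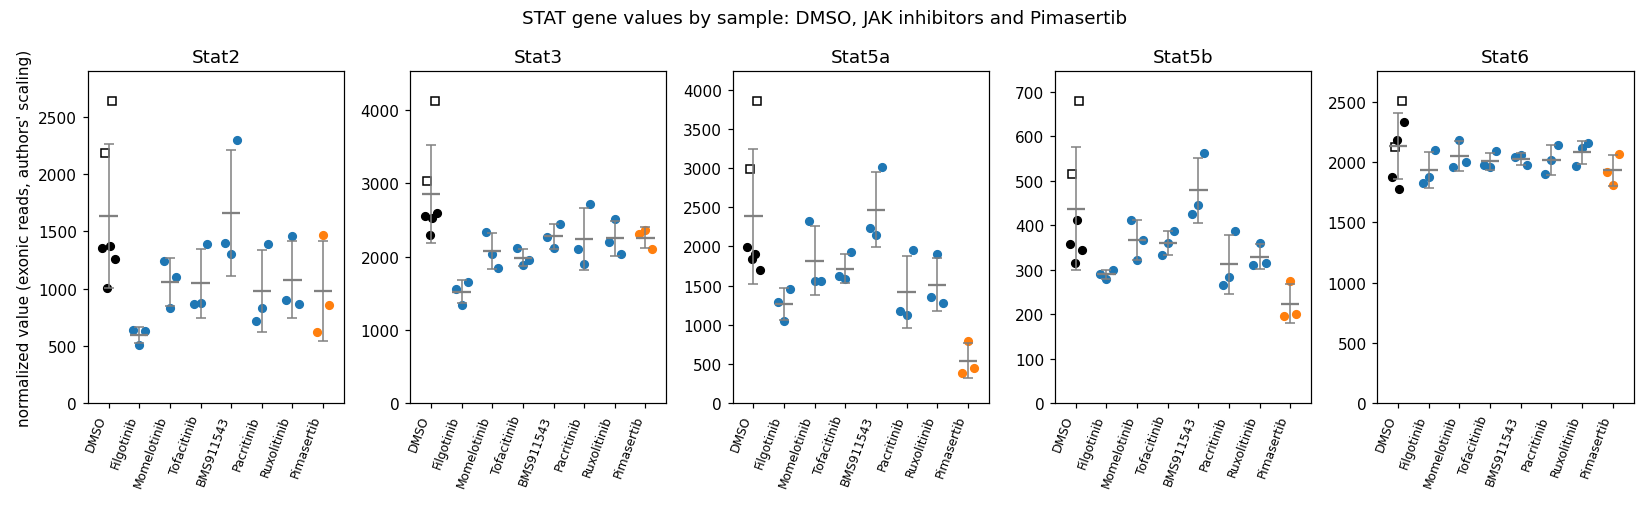
Normalized values (y axis, starting at 0) of each STAT gene in every sample of DMSO, the 6 JAK inhibitors and Pimasertib (x axis), with horizontal lines at the means and bars for 1 SD; open squares are the second replicates of the DMSO sets. Filgotinib lies below all DMSO samples for Stat2, Stat3, Stat5a and Stat5b, and Pimasertib for Stat5a and Stat5b.

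Whether Stat2 fell more than the other STAT genes was asked with the log2 ratio of Stat2 to the mean of the other 4 in each sample, which does not depend on the scaling of samples. With Filgotinib the ratio lay between -0.86 and -0.67, and in DMSO between -0.38 and 0.30. The groups did not overlap, and the difference was -0.78 (exact two-sided permutation p = 0.0119, the smallest that the 84 splits of 9 samples allow). Adjusted over the 6 JAK inhibitors, p was 0.0714, which misses the threshold. Without the second DMSO replicates the difference was -0.66 (exact permutation p = 0.0286, adjusted 0.171). With the other 5 JAK inhibitors the differences ran from -0.32 with Pacritinib to 0.08 with BMS911543, with adjusted exact p-values of at least 0.238. A low ratio was not particular to Filgotinib. With Midostaurin, which is not among the JAK inhibitors, it lay between -0.81 and -0.50, also wholly below DMSO. With BGT226 (0.69 to 0.72) and Omipalisib (0.53 to 0.74) it lay wholly above DMSO. The ratios with these CKIs were not tested. The ratio of Stat5a to Stat5b was 0.32 lower on the log2 scale with Filgotinib than in DMSO, a difference of -0.32 (exact permutation p = 0.0238, adjusted 0.119), and it passed the adjusted threshold with none of the 6.

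The largest change of any STAT gene was that of Stat5a with Pimasertib, an inhibitor of the MEK kinases that activate ERK. Normalized values were 388, 793 and 445, less than the lowest DMSO value of 1706 in each sample. The mean of 542 ± 219 (SD, n = 3) was 4.41-fold below DMSO on the log2(value + 1) scale, with a log2 fold change of -2.14 (SE 0.27, adjusted p = 1.3e-09). Pimasertib lowered 2 of the 5 genes, where 5.68% of all genes were called lower. The other was Stat5b, with 196, 274 and 201 against a DMSO minimum of 314, and a log2 fold change of -0.93 (SE 0.19, adjusted p = 0.000362).

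Both Pimasertib calls held without the second DMSO replicates, at -1.85 (adjusted p = 2.21e-06) and -0.68 (adjusted p = 0.0315). The sum of Stat5a and Stat5b gave -1.87 (SE 0.25, adjusted p = 1.83e-08). Stat2, with 621, 1464 and 857, overlapped DMSO and did not pass (-0.75, adjusted p = 0.0517, and 0.0315 with the replicate block), and neither did Stat3 (-0.31, adjusted p = 0.0732) or Stat6 (-0.14, adjusted p = 0.297). Mitochondrially encoded transcripts made up 3.24% to 4.29% of the Pimasertib samples and 0.76% to 1.95% of DMSO. The summed neutrophil markers, 7 of 8 with a mean of at least 10, were at 124 to 137 per 1000000 with Pimasertib, above the DMSO range. The part of either in the result was not tested, except that the calls of Stat5a and Stat5b held with the mitochondrial share as a covariate beside the replicate number.

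Other inhibitors of RAF, MEK or ERK, picked here after their values were seen, gave smaller differences in Stat5a, and none passed. The MEK inhibitors Selumetinib and Refametinib gave 1603, 2168 and 1932, and 1399, 1583 and 1558. The ERK inhibitors Ulixertinib and GDC0994 gave 1629, 1223 and 2274, and 2410, 1751 and 1312. The RAF inhibitor Encorafenib gave 2027, 1065 and 2188. Of these 5, only Refametinib had all samples below DMSO. Log2 fold changes were -0.27, -0.59, -0.46, -0.36 and -0.44, each with an SE of 0.27. Concentrations differed, so these CKIs were not compared with Pimasertib.

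Apitolisib is an inhibitor of PI3K and mTOR and was used here at a concentration for JAK1. It lowered 3 of the 5 genes, where 3.2% of all genes were called lower. Stat5a had 1073, 1246 and 1035, with a log2 fold change of -1.03 (SE 0.27, adjusted p = 0.0136). Stat5b had 261, 298 and 287 (-0.58, adjusted p = 0.0294), and Stat3 had 2218, 2032 and 1937 (-0.44, adjusted p = 0.0223). All 9 of these values lay below DMSO. None of the 3 calls held without the second DMSO replicates, with adjusted p-values of 0.153, 0.312 and 0.241, and all 3 were also lost without replicate 2 of the second DMSO set (0.0708, 0.139 and 0.11) or without Apitolisib replicate 3 (0.123, 0.137 and 0.142). That of Stat3 was lost without Apitolisib replicate 2 (0.0636), and that of Stat5b without Apitolisib replicate 1 (0.0972) or 2 (0.0623) or replicate 2 of the first DMSO set (0.0602). The share of mitochondrial transcripts ran from 1.49% to 4.04%.

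Afatinib and Mubritinib, inhibitors of the ERBB receptor kinases, gave the remaining calls. Without the block, the ERBB inhibitors Lapatinib, Neratinib and AC480 had 0 calls on the STAT genes. Neratinib had the highest Stat3 mean of the 59 groups, 3217. Afatinib lowered 2 of the 5 genes, where 12.8% of all genes were lower. Stat3 had 2064, 1620 and 2364 (-0.49, adjusted p = 0.00388), and Stat6 had 1658, 1702 and 1990 (-0.25, adjusted p = 0.0436). This was the only call on Stat6 without a replicate block, and with the block Stat6 had 4 lower calls and 1 higher, the largest being that with Volasertib (-0.27, adjusted p = 0.00595), whose samples were 1645, 2044 and 1602. In both, at least 1 Afatinib sample lay within the DMSO range. Mubritinib lowered 1, where 0.763% were lower. Stat5a had 1360, 821 and 1524, below all DMSO samples, with a log2 fold change of -0.93 (SE 0.27, adjusted p = 0.0423). None of these 3 calls held without the second DMSO replicates, with adjusted p-values of 0.121, 0.244 and 0.409. That of Stat3 with Afatinib was also lost without Afatinib replicate 2 (0.157). That of Stat6 was lost without Afatinib replicate 1 (0.238) or 2 (0.217), or when 1 of 4 DMSO samples was left out, replicates 2 and 3 of either set (0.0585 to 0.152). That of Stat5a with Mubritinib was lost without Mubritinib replicate 1 (0.108) or 2 (0.716), or replicate 2 of the first (0.105) or second DMSO set (0.182).

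The highest Stat2 means were those of BGT226 and Omipalisib, which like Apitolisib act on PI3K and mTOR. BGT226 gave 2104, 1977 and 2978, and Omipalisib 2175, 1865 and 2881, against 785, 1190 and 894 with Apitolisib. Log2 fold changes were 0.58 (adjusted p = 0.117) and 0.56 (adjusted p = 0.148), and -0.71 (adjusted p = 0.0729, and 0.0457 with the replicate block) with Apitolisib. With all 6 DMSO samples and without the block, none passed in limma. BGT226 and Omipalisib were chosen here for their high values. Their values in the fit without the second DMSO replicates, which had higher calls on STAT genes, are not given here.

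**Figure D3:**
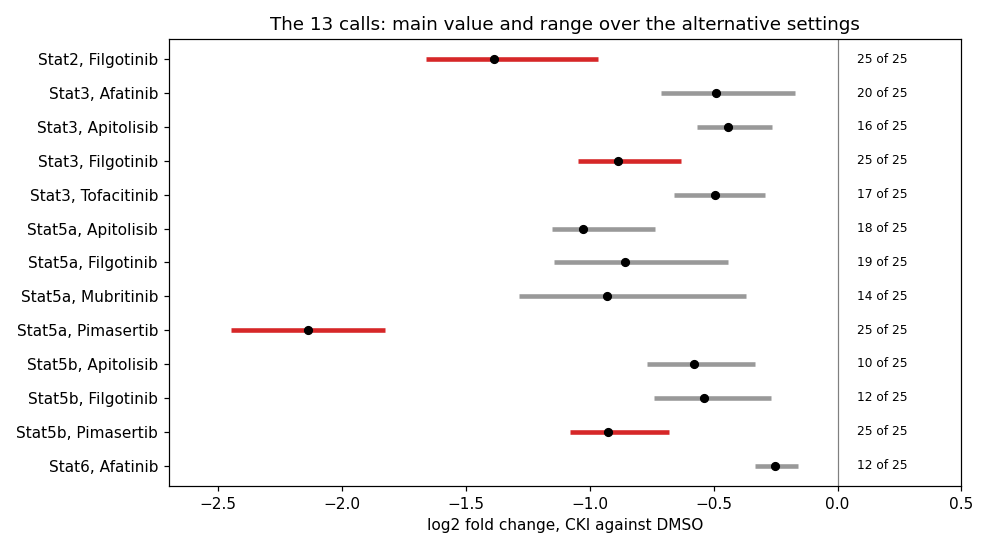
Log2 fold change (x axis) of the 13 calls (y axis), with a point for the value with all samples, a line for its range over the alternative settings and the number of settings in which the call held. The 4 red lines are Stat2 and Stat3 with Filgotinib and Stat5a and Stat5b with Pimasertib, which held in 25 of 25, and Stat5b with Apitolisib held in 10.

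Stat5a and Stat5b had the highest correlation of the 10 pairs. Over the 59 group means of log2(value + 1), Pearson's r was 0.902 for this pair, 0.759 for Stat2 and Stat5b, and 0.714 for Stat2 and Stat3. Stat6 had the lowest values with the others, from 0.166 to 0.468. These are descriptions, since all groups share the processing, Stat5a and Stat5b can exchange reads, and Pimasertib lies far from the rest of the points.

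**Figure D4:**
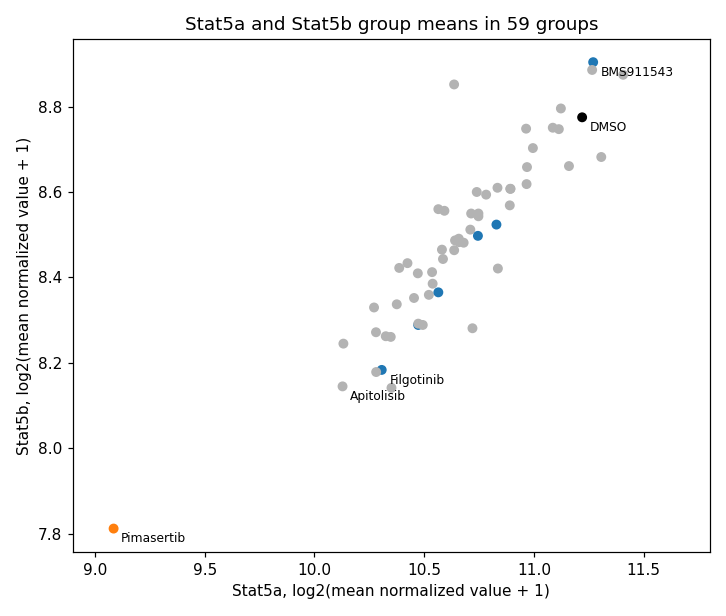
Mean normalized value + 1 on a log2 scale of Stat5a (x axis) and Stat5b (y axis) in 59 groups, with DMSO in black, JAK inhibitors in blue, Pimasertib in orange and other CKIs in grey. Pimasertib, with means of 542 and 224, lies apart at the lower left.

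The genes most like each STAT gene over these 59 means were taken among 9641 genes with a mean of at least 50. For Stat2 they were Gnb4 (r = 0.929), Rnf114, Herc6, Calhm6 and Dtx3l. Those of Stat3 were Tifa (0.886), Prkx, Cmtm6, Efcab14 and Sgcb. Stat5a was followed by Stat5b, Mapkbp1 (0.84), Rhbdf2, Il4i1 and Il4i1b, of which the last 2 may share reads. Stat5b was followed by Stat5a, Mapkbp1 (0.869), Pstpip2, Rhbdf2 and Pik3r5. Likeness was weakest for Stat6, with Fbh1 (0.784), Kif11, Arih2, Nup133 and Cep120.

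The rest of the pathway was read from 12 lists with 145 genes, of which 117 were tested. With Filgotinib 32 of them (27.4%) were called lower and 8 (6.84%) higher, against 14.6% and 6.1% of all genes, so that the share of higher calls was near that of all genes. BMS911543 gave 16 lower (13.7%) and 1 higher, against 8.08% and 0.472% of all genes. Tofacitinib gave 5 lower (4.27%) and 12 higher (10.3%), against 0.857% and 9.02%, and here too the higher calls were near the share of all genes. Momelotinib gave 5 lower (4.27%) and 0 higher, against 0.409% and 0.378%. Pacritinib and Ruxolitinib had 0 calls in either direction in limma, with 31 and 18 genes at an unadjusted p under 0.05, where 0.118% and 0% of all genes were called higher. At that unadjusted threshold, 2384 and 590 of the 12714 genes tested passed with these CKIs. Without the second DMSO replicates the counts were 23 and 3 with Filgotinib (8.79% and 2.54% of all genes), 10 and 0 with BMS911543 (5.36% and 0.378%), 0 and 2 with Tofacitinib (0.0551% and 0.582%) and 1 and 0 with Momelotinib (0.102% and 0.197%).

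Of the 4 Janus kinases, only Tyk2, which serves the type I interferon receptor, was called with a JAK inhibitor. It fell from a mean of 673 in DMSO to 411 with Filgotinib (log2 fold change -0.68, adjusted p = 0.000328). Jak1, Jak2 and Jak3 gave -0.24, -0.31 and -0.40 with that CKI and did not pass. Irf9, the DNA-binding partner of STAT2, was at 806 with Filgotinib and 818 in DMSO (-0.01, adjusted p = 0.968).

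Receptors were lowered in several lists with Filgotinib. Of the 6 interferon and class II receptors tested, 4 fell, with Il10ra, the ligand-binding chain of the IL-10 receptor, at -0.99 (adjusted p = 5.32e-08), Il10rb at -0.63 (adjusted p = 4.8e-08) and Ifnar1 at -0.49 (adjusted p = 0.000469). Of 11 common gamma, common beta and single chain receptors, 5 fell, among them Il15ra (-1.52), Il4ra (-0.99) and Il13ra1 (-0.75). Of all genes, 14.6% were lower with Filgotinib. Without the second DMSO replicates, 3 of 6 and 3 of 11 were called lower in these 2 lists, where 8.79% of all genes were. BMS911543 lowered Il6ra by a log2 fold change of -2.07 (adjusted p = 2.36e-07) and Ifngr2 by -0.68. The median over the 6 interferon and class II receptors was -0.46 with Filgotinib, against -0.04 over all genes.

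Targets of ISGF3, the complex that holds STAT2, were lower with Filgotinib in 10 of 24 and higher in 0, where 14.6% of all genes were lower. Their median log2 fold change was -0.72, against -0.04 over all genes. Mx1, an antiviral GTPase, was at -1.72 (adjusted p = 0.000516), Cmpk2 at -1.61 (adjusted p = 0.000912) and Usp18, which dampens the interferon receptor, at -1.38 (adjusted p = 0.000672). The count was 7 of 24 without the second DMSO replicates, where 8.79% of all genes were lower. Momelotinib lowered 3, with a median of -0.56, against 0.409% of all genes, and Tofacitinib lowered 1, against 0.857%. Leaving out the second DMSO replicates gave 1 and 0. Ruxolitinib had 0 calls, but 23 of 24 targets lay below 0, where 41.44% of all genes did. Its median was -0.29, against 0.04 over all genes. Pacritinib had 0 calls, 14 of 24 below 0 and a median of -0.05, against 38.54% and 0.10 over all genes. BMS911543 changed 0 of 24 in limma, with a median of 0.24, where 8.08% of all genes were lower and 0.472% higher. Pimasertib lowered 1 and raised 4 of 24, near its shares over all genes of 5.68% and 16%. All 5 of these calls were lost without the second DMSO replicates.

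Feedback inhibitors and cytokines had calls in both directions. Socs1, a feedback inhibitor of JAKs, had a mean of 170 with BMS911543 and 2688 in DMSO, a log2 fold change of -3.82 (SE 0.55, adjusted p = 6.56e-08). This fall was not particular to BMS911543. Filgotinib gave 181, 314 and 258, below the DMSO minimum of 618. Limma also called Socs1 lower with Afatinib (-3.57, adjusted p = 5.12e-07) and Apitolisib (-1.95, adjusted p = 0.0185). The Apitolisib call was lost without the second DMSO replicates. With Filgotinib, 14.6% of all genes were lower and 6.1% higher. This CKI lowered 3 of 8 genes of the SOCS family, Cish (-0.72) and Socs2 (-1.17) among them, and raised 1. It lowered Il27, a cytokine subunit that acts through STAT factors, by a log2 fold change of -2.07 (adjusted p = 5.98e-06) and raised Lif (1.31, adjusted p = 0.0411). Tofacitinib raised Ifnb1, which encodes interferon beta, from 122 to 306 (1.45, adjusted p = 0.0199), a call that was lost without the second DMSO replicates (adjusted p = 0.104).

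Targets of STAT3, STAT5 and STAT6 had calls in both directions. With Filgotinib, 3 of 15 STAT3 targets fell and 1 rose, 2 of 10 STAT5 targets fell and 2 rose, and 2 of 12 STAT6 targets fell and 2 rose. With this CKI 14.6% of all genes were lower and 6.1% higher, and nothing is read from counts this small. Fgl2 fell (-1.41), while Id1 (2.65) and Bcl6 (1.28), both known to respond to STAT5, rose. Hif1a (-1.16) and Cebpd (-1.15) fell with BMS911543. Tofacitinib raised the chemokine genes Ccl17 (2.03) and Ccl22 (1.42), which IL-4 is known to induce, and the cofactor genes Crebbp (0.61) and Kpna2 (0.46). Of 12 other negative regulators, 5 fell with Filgotinib, among them Pias2 (-1.21), and Pias4 fell with BMS911543 (-1.03). Of the partners and cofactors, 1 of 8 rose with Filgotinib, and of the gp130 and IL-12 type receptors 1 of 6 fell. Without the second DMSO replicates, the calls on Il13ra1 and Lif with Filgotinib, Cebpd with BMS911543, and Ccl17, Crebbp and Kpna2 with Tofacitinib were lost, and that on Ccl22 held (adjusted p = 0.045).

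With Pimasertib, 21 of 117 list genes (17.9%) were lower and 18 (15.4%) higher, against 5.68% and 16% of all genes, so that the higher calls were near the share of all genes. Against the 4 DMSO samples other than the second replicates, the counts were 10 and 4, where 1.57% and 2.5% of all genes were called. All 6 interferon and class II receptors tested fell, with log2 fold changes from -0.82 for Ifnar1 to -0.22 for Ifngr1 and a median of -0.62, against 0.12 over all genes. Of the 6, 5 were called without the second DMSO replicates. Cish fell from 2296 to 932 (-1.35, adjusted p = 1.83e-08), and Bcl6 rose from 184 to 491 (1.45, adjusted p = 0.000543). Both genes are in the STAT5 list, and a link to the fall of Stat5a was not tested. In limma, BMS911543 also had calls on Cish (-0.55, adjusted p = 0.0371) and Bcl6 (1.11, adjusted p = 0.0067). Without the second DMSO replicates, both calls were lost with BMS911543 and both held with Pimasertib. With Pimasertib, 2 of the 10 STAT5 targets fell and 1 rose, where 5.68% of all genes were lower and 16% higher. Afatinib had 24 list genes (20.5%) lower and 5 (4.27%) higher, against 12.8% and 9.06% of all genes. Apitolisib had 17 (14.5%) and 8 (6.84%), against 3.2% and 12.7%, and Mubritinib 5 (4.27%) and 3 (2.56%), against 0.763% and 1.08%. Without the second DMSO replicates the counts were 14 and 3, 0 and 0, and 4 and 2.

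**Figure D5:**
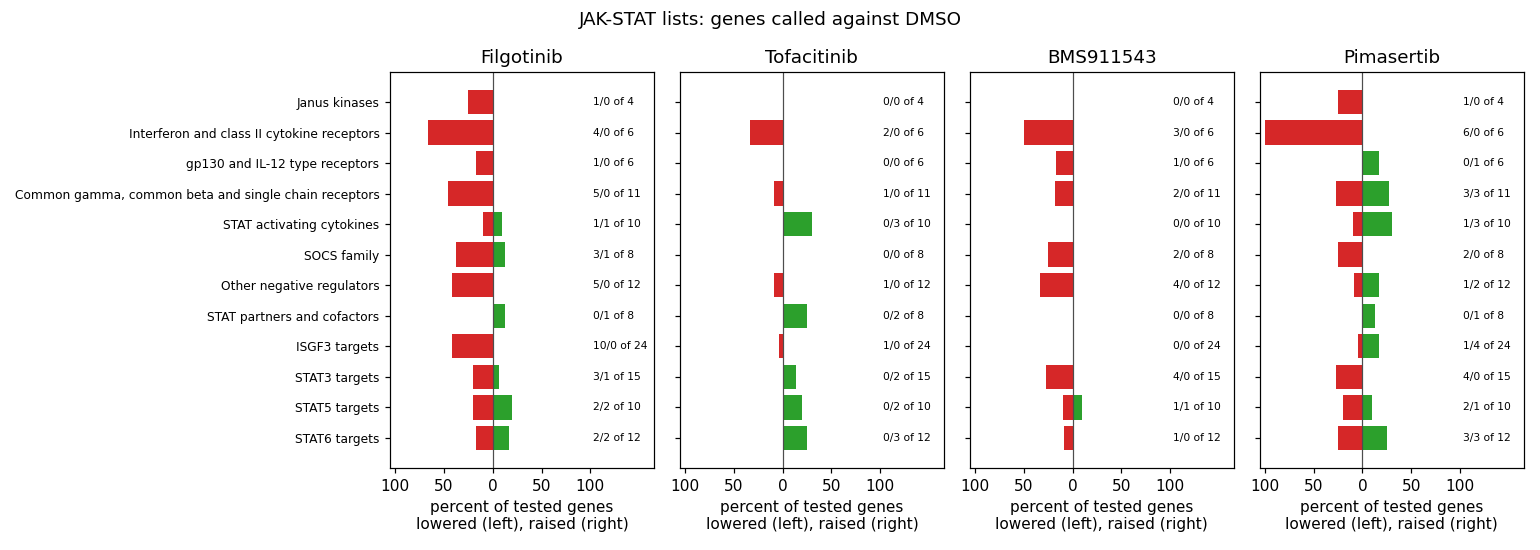
Percent of the tested genes of each list (y axis) called lower (bars to the left) or higher (bars to the right) than DMSO with Filgotinib, Tofacitinib, BMS911543 and Pimasertib; the numbers give genes lower and higher of those tested. The ISGF3 targets have 10 of 24 lower with Filgotinib, and the interferon and class II receptors 6 of 6 lower with Pimasertib.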

How the data were processed

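PolyA RNA of 180 samples was copied by SMART-seq2 and sequenced. Per the labels and the methods, the authors aligned reads to mm10 with TopHat2 (version 2.1.1), kept 1 alignment per read, removed reads in blacklisted regions with bedtools (2.29.2), counted reads per RefSeq gene in R, scaled each sample on invariant genes and rounded. The deposited values are therefore treated as a score, called normalized values, and not as counts. The authors tested them with DESeq2, without its normalization. Whole reads were not recovered here, so no count test was run.

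The 3 samples of a CKI were set against the 6 of DMSO by limma (3.58.1, R 4.3.3) on log2(value + 1), with a variance trend, in 1 fit of 59 groups over the 12714 genes with a mean of at least 10, and p-values were adjusted by Benjamini and Hochberg within each CKI with a threshold of 0.05. Ratios within samples were compared by exact permutation tests. The script was tested on simulated data. The genes, lists and tests were chosen with earlier results of these data known. The genes named are the 5 STAT genes, their calls, up to 3 called genes per list over the JAK inhibitors, the Janus kinases, Irf9 and the 5 genes most like each STAT gene; the Pimasertib list genes, Ifnar1 with Filgotinib, and the other kinase inhibitors were named after their values were seen. The promoter windows are from RefSeq, the transcripts searched for shared stretches are from GENCODE, and all 5 genes matched. Totals of normalized values ran from 9477340 to 12273349 per sample, which limits precision for genes near the filter; the STAT genes lie far above it. The alternatives were other pseudocounts (0.5 and 10), filters, scaling, DMSO sets, fits, the replicate block, and leaving out samples.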

Additional observations from a re-analysis of the deposited data

How the results depend on the processing

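The number of STAT genes called lower over the 58 CKIs was 13 with all samples, 4 without the second DMSO replicates of both sets, 4 with the first DMSO set alone, 6 with only the CKI and DMSO in the fit, 21 with samples scaled again and 22 under the replicate block, and it ran from 4 (without replicate 2) to 20 (without replicate 1 of the second DMSO set) when 1 replicate was left out. The number called higher was 0, and it was 2 without the second DMSO replicates, 2 with the mitochondrial share and the replicate block, 1 with the block alone and up to 3 when 1 replicate was left out. The 5 calls with JAK inhibitors became 2 without the second DMSO replicates or with the first DMSO set alone, 3 with only the CKI and DMSO in the fit, and 2 to 8 when 1 replicate was left out. The counts of the other fits stand without the share of all genes called, so nothing particular to the STAT genes is read from them. Stat2 and Stat3 with Filgotinib and Stat5a and Stat5b with Pimasertib held in 25 of 25 settings.

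The deviations of same-numbered samples from their group means all correlated by over 0.1 with those of DMSO in 34 of 58 CKIs and not in the other 24, with a mean of 0.225 for the same number and -0.112 for other numbers. The numbers thus follow the samples in part. The results are given without the block, and the calls that the block added are given beside them. Directions turned for log2 fold changes and ratios that were not called, and for no call. With the first DMSO set alone, Stat6 with Ruxolitinib was 0.016. With the second set alone, Stat2 with BMS911543 was -0.045 and its log2 ratio of Stat5a to Stat5b against DMSO was 0.0195. Without the second DMSO replicates, Momelotinib gave 0.0404 for Stat5b and 0.0125 for Stat6, Tofacitinib 0.0185 for Stat5b and Ruxolitinib 0.0347 for Stat6. With the mitochondrial share and the replicate block, Stat6 was 0.0083 with Tofacitinib and 0.0124 with Pacritinib. When 1 replicate was left out, Momelotinib ran from -0.6517 to 0.0381 for Stat5a, -0.3866 to 0.1309 for Stat5b and -0.1233 to 0.012 for Stat6, Tofacitinib from -0.4595 to 0.0178 for Stat5b and -0.172 to 6e-04 for Stat6, and Ruxolitinib from -0.0948 to 0.0223 for Stat6. BMS911543 ran from -0.429 to 0.5298 for Stat2, -0.2325 to 0.481 for Stat5a and -0.1282 to 0.4617 for Stat5b, its log2 ratio of Stat2 to the other 4 genes from -0.2256 to 0.3178 and that of Stat5a to Stat5b from -0.1274 to 0.0193. The cause of calls lost or gained was not tested.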
